A study of Mus musculus with 4 samples.

Results

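The genes described here are 37 genes of microglia and brain macrophages, taken by symbol from the count files of a cortical polysome study in mice. All 37 symbols were among the 32531 gene names of the files, and all 37 were among the 16600 genes that passed the filter on low counts and were tested. The study measured RNA in the cerebral cortex of adult mice of 1 transgenic line, Cbln1-EGFP-Rpl10a NIDA030, labelled with the genotype Cbln1-TRAP NIDA030. In translating ribosome affinity purification (TRAP), an EGFP-tagged ribosomal protein L10a is made in chosen cells, and ribosomes carrying it are captured with an antibody to EGFP together with the RNA they hold. There were 2 libraries of captured, ribosome-bound RNA (IP) and 2 libraries of total RNA (input), numbered 2 and 4 in each group. All 4 libraries came from the transgenic line. The line name ties the tag to Cbln1, a gene of neurons, and the labels do not list the cells that carry it, nor the strain or sex of the mice, nor whether libraries of a group came from separate animals. The p-values therefore cover the spread among these 4 libraries alone, and that spread may be technical. No tissue without the tag was analysed here, so the RNA that the capture takes up from cells without tagged ribosomes was not measured.

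Microglia are the resident macrophages of brain tissue. They depend on the growth factor receptor Csf1r, survey their surroundings through receptors for nucleotides and for the neuronal chemokine fractalkine, and make the C1q proteins that start the classical complement cascade. Border macrophages, which carry Mrc1, Cd163 and Pf4, live in the meninges and around vessels. Several members encode lysosomal proteases, which microglia make in large amounts but which neurons and other cells also make.

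Each library held 39750468 to 47567384 counts assigned to genes, so that 3 counts correspond to 0.066 to 0.079 CPM (the usual scaling of counts to library size, here after TMM normalisation). Such floors cover counting error only. Cbln1 itself was 8.19-fold higher in IP (84.0 ± 21.7 against 10.2 ± 2.39 CPM, SD, n = 2 each, edgeR adjusted p = 1.39e-10). Of 12 pan-neuronal markers 11 rose in IP, with a median log2 fold change of 1.25. By the sample descriptions IP was sequenced on lane 1 and input on lane 2, and thus the lane and the kind of RNA cannot be told apart. In bulk RNA, fewer cells of a type and less RNA per cell cannot be told apart either.

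Of the 37 genes, 4 rose and 8 fell in IP, while the remaining 25 did not pass the test. The 4 that rose were Csf1r and the lysosomal protease genes Lgmn, Ctsd and Ctsb. The 8 that fell were P2ry12 and Tmem119, the adaptor genes Tyrobp and Fcer1g, Ly86, the leukocyte genes Cd53 and Ptprc, and Cst3, the gene of the protease inhibitor cystatin C. Of these, Ptprc passed the filter on low counts through its input libraries. Among all 16600 genes tested, 23.4% were called higher and 22.4% lower (quasi-likelihood test in edgeR, p adjusted by Benjamini-Hochberg and under 0.05). The members stood at 10.8% higher and 21.6% lower, so their share of lower genes was near that of all genes. Their median log2 fold change was -0.29, against -0.04 for all genes tested. In 4 members both IP values exceeded both input values (35.3% of all genes), in 17 both were smaller (37.8% of all genes) and in 16 the groups overlapped. With library sizes alone as the scaling, the median of all genes moved by -0.26, and the member counts became 4 higher and 15 lower. Without input 2, and likewise without input 4, 5 members were called lower.

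**Figure D1:**
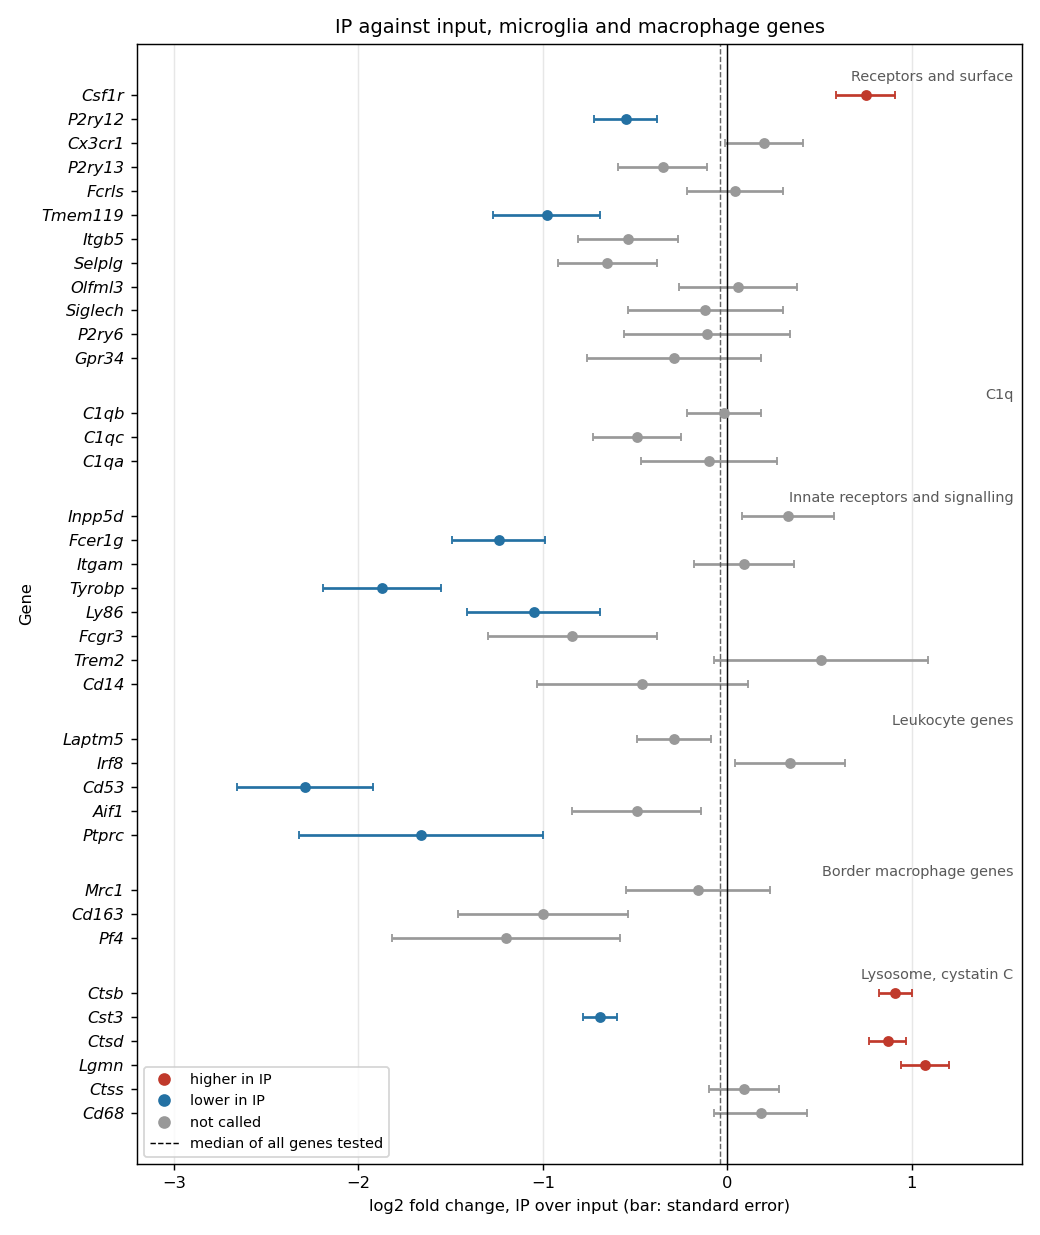
Log2 fold change of IP over input for the 37 genes, grouped by role, with points for the estimate and bars for its standard error. The dashed line is the median of all genes tested, -0.04. Csf1r, Ctsb, Ctsd and Lgmn lie to the right in red, and the 8 genes called lower lie to the left in blue, out to Cd53 at -2.29.

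All 37 genes were detected in all 4 libraries, with at least 8 counts each, and differed widely in level. Divided by exonic length, their input levels ran from 353 CPM per kilobase for Cst3 to 0.182 for Ptprc, the gene of the leukocyte phosphatase CD45. After Cst3 came Ctsb at 73.3, Ctsd at 44.5 and Lgmn at 10.2 CPM per kilobase. The highest of the other members were Fcer1g at 8.84, the microglial cathepsin gene Ctss at 8.49, Tyrobp at 7.98, C1qb at 6.62, C1qc at 5.73 and P2ry12 at 5.51. In IP the order on this scale was Cst3 (219), Ctsb (138), Ctsd (81.3), Lgmn (21.4) and Ctss (9.07), and Tyrobp stood at 2.18. Neighbours in the input order such as Fcer1g and Ctss did not separate beyond their spread, since the input libraries gave 7.31 and 5.92 CPM for Fcer1g and 13.7 and 9.4 CPM for Ctss on exonic lengths of 748 and 1358 bases.

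**Figure D2:**
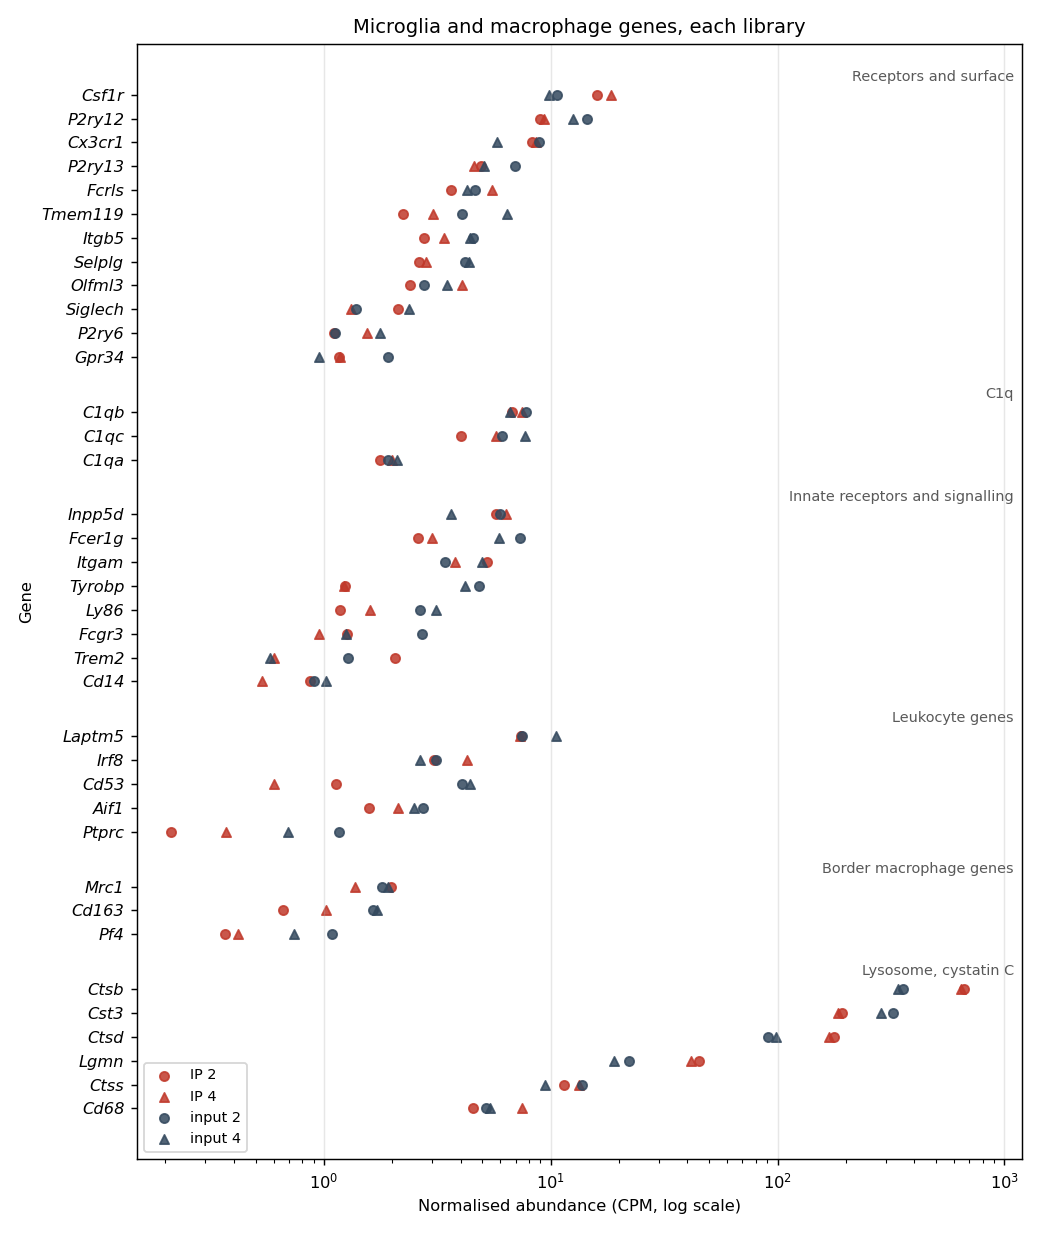
Abundance of each gene in each of the 4 libraries, in CPM on a log scale, with red for IP, dark blue for input, circles for number 2 and triangles for number 4. Most genes sit under 20 CPM in every library, with Cst3, Ctsb and Ctsd far above and Lgmn near and above that level. Red points lie fully above dark points in the 4 genes that rose, and fully below them in 17 genes, among them Tyrobp, Fcer1g and Cd53. Over all genes tested these shares are 35.3% and 37.8%.

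The split by level was a description made after the values were seen. The 33 members with a mean under 20 CPM together held 121 and 135 CPM in IP and 152 and 142 CPM in input, and 1 of them rose and 7 fell, with a median of -0.29. The 4 members at 20 CPM or more held 3 that rose and 1 that fell, with a median of 0.89. Among all genes at 20 to 100 CPM 37.9% were higher and 21.2% lower, and from 100 CPM upward 48.3% and 19.9%. Level and call went together across all genes too. Of the 3053 genes with a mean of 1 to 5 CPM, 6.16% were higher and 25% lower, with a median of -0.31, and of the 20 members in that range 0 were higher at this threshold and 5 were lower, with a median of -0.39. At an unadjusted p under 0.05 and with DESeq2, Csf1r was likewise the single member under 20 CPM called higher. From 5 to 20 CPM the median was 0.03 for 3841 genes and 0.04 for 10 members, of which 1 rose and 1 fell. Of all genes in that range 22.2% were higher and 19.9% lower. Under 1 CPM these shares were 1.22% and 26.9%, and of 3 members there 1 was lower. The median standard error of a log2 fold change was 0.36 from 1 to 5 CPM and 0.10 from 100 CPM upward, so the weakly expressed members were measured with less precision.

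**Figure D3:**
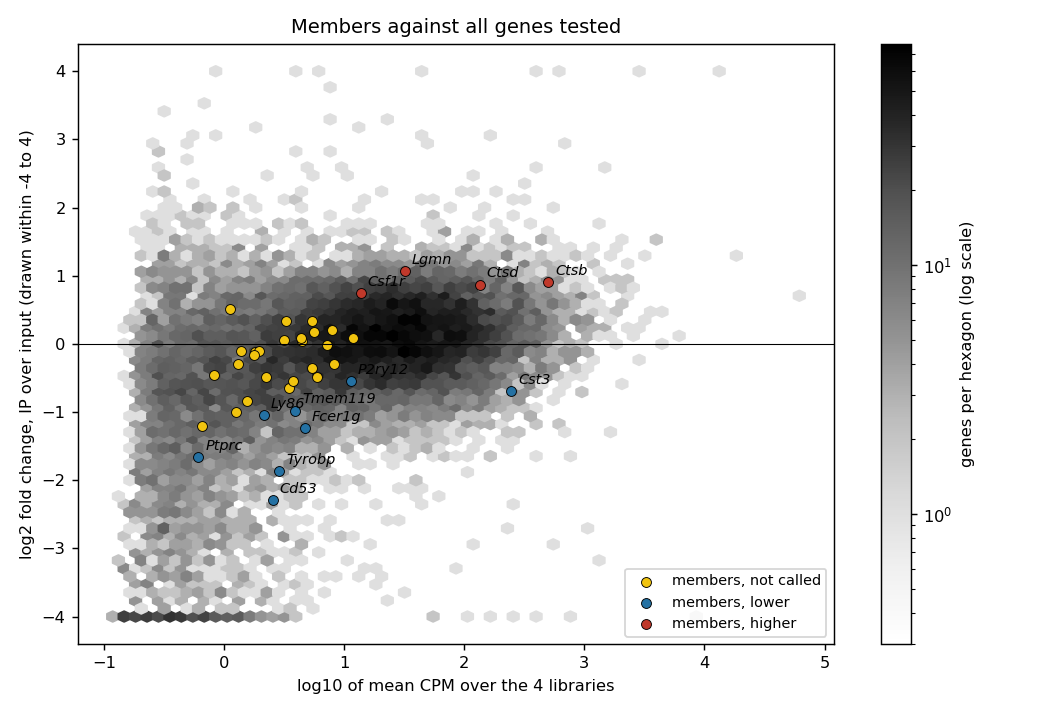
Log2 fold change of IP over input against the log10 mean CPM of the 4 libraries, with all 16600 genes tested as shaded hexagons and the 37 members as points. Values beyond 4 are drawn at the edge. The uncalled members lie within the cloud of other genes of their level, and Cd53 and Tyrobp lie near its lower edge.

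Among the receptors and surface proteins, 12 genes in all, 1 rose and 2 fell (8.33% and 16.7%), with a median of -0.21. Over all genes tested these shares were 23.4% and 22.4%. Csf1r, the receptor for the growth factors Csf1 and interleukin 34, was counted at 16.0 and 18.5 CPM in IP 2 and IP 4 and at 10.7 and 9.80 CPM in input 2 and input 4. Both IP values lay above both input values, and the gene rose by 0.75 on the log2 scale (SE 0.16, edgeR adjusted p = 0.000875). Over 10 alternative settings its log2 fold change ran from 0.49 to 0.87 and was called in all 10. The Csf1r exons overlap those of Hmgxb3 on the opposite strand, and the strand setting of the counting is not given in the sources used here. Hmgxb3 itself, named after its values were seen, stood at 0.06 (SE 0.12, edgeR adjusted p = 0.727).

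P2ry12, the ADP receptor by which microglial processes turn towards sites of damage, moved the other way. It stood at 8.95 and 9.37 CPM in IP and at 14.4 and 12.5 CPM in input, with no overlap between the groups. It fell by 0.55 (SE 0.17, edgeR adjusted p = 0.0123), a call that was lost without input 2 (adjusted p = 0.119). Tmem119, a membrane protein used to mark microglia apart from blood macrophages, had 2.24 and 3.03 CPM in IP and 4.05 and 6.40 CPM in input. It fell by 0.98 (SE 0.29, edgeR adjusted p = 0.00987), and without input 4 the value was -0.61 and no longer called (adjusted p = 0.223).

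Cx3cr1, the fractalkine receptor, was close in all libraries but 1, with 8.29 and 8.63 CPM in IP and 8.89 and 5.80 CPM in input. On the log2 scale it differed by 0.20 (SE 0.21, edgeR adjusted p = 0.466), and its exons overlap an antisense gene. P2ry13, a nucleotide receptor gene next to P2ry12 on chromosome 3, had 4.90 and 4.58 CPM in IP and 6.95 and 5.08 CPM in input, and its value of -0.35 (log2) was not called. The other uncalled genes of this role were P2ry6, a UDP receptor, at -0.11, Gpr34, a lysophospholipid receptor, at -0.29, and Siglech, a sialic acid binding lectin, at -0.12. Fcrls, an Fc receptor-like gene, stood at 0.04 and Olfml3, a secreted olfactomedin protein, at 0.06. Selplg, the ligand of P-selectin, at -0.65, and Itgb5, an integrin subunit, at -0.54, had both IP libraries below both input libraries without passing (edgeR adjusted p = 0.0621 and 0.111). Both passed with library sizes alone, and Selplg also under the stricter filter on low counts (log2 fold change -0.71, adjusted p = 0.0471). In contrast the IP and input values of P2ry6, Gpr34, Siglech, Fcrls and Olfml3 overlapped.

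The C1q genes encode the 3 chains of the complement protein C1q and lie side by side on the minus strand of chromosome 4, from the start of C1qb at 136880129 to the end of C1qa at 136898803 (GRCm38). C1qb had 6.74 and 7.45 CPM in IP and 7.81 and 6.59 CPM in input, with overlapping groups and a log2 difference of -0.02 (SE 0.20). C1qa had 1.76 and 1.99 CPM in IP and 1.91 and 2.10 CPM in input, at -0.10 (SE 0.37). C1qc had 4.0 and 5.76 CPM in IP and 6.07 and 7.72 CPM in input, so that its groups did not overlap, at -0.49 (SE 0.24, edgeR adjusted p = 0.0976). By edgeR 0 of the 3 chains were called, 0 at an unadjusted p under 0.05, and 0 by DESeq2. C1qc was called lower in 3 of 10 alternative settings, among them the fit with the replicate number as a block (log2 fold change -0.51, adjusted p = 0.0453).

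Of the 8 immune receptor genes and their signalling partners, 3 fell and 0 were called higher (0 at an unadjusted p under 0.05, and 0 by DESeq2), with a median of -0.65. The share of lower genes was 37.5%, against 22.4% of all genes tested. Of all genes with a mean of 1 to 5 CPM, 6.16% were higher and 25% lower. Tyrobp (DAP12), the signalling adaptor through which Trem2 acts, had 1.24 and 1.23 CPM in IP and 4.82 and 4.18 CPM in input, from 47 and 53 counts against 219 and 181. The IP libraries were nearly equal to each other and well below both input libraries. Tyrobp fell by 1.87 (SE 0.32, edgeR adjusted p = 9.54e-05), that is, it was 3.65-fold lower. Fcer1g, the shared gamma chain of Fc receptors, had 2.61 and 2.98 CPM in IP and 7.31 and 5.92 CPM in input. It was 2.36-fold lower (log2 fold change -1.24, SE 0.25, edgeR adjusted p = 0.000488). Both genes were called lower in all 10 alternative settings.

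Trem2, the lipid receptor that signals through Tyrobp, was not called. Its libraries gave 2.05 and 0.602 CPM in IP and 1.28 and 0.578 CPM in input, so the libraries numbered 2 were high and those numbered 4 low in both groups. Its log2 difference of 0.51 had an SE of 0.58, and without IP 2 it was -0.61. Fcgr3, an activating Fc receptor that signals through Fcer1g, had 1.26 and 0.949 CPM in IP and 2.71 and 1.25 CPM in input (log2 fold change -0.84, SE 0.46, edgeR adjusted p = 0.142). Fcgr3 has close relatives, so its count is uncertain where reads match several copies. Ly86, a partner of the receptor Rp105, fell by 1.05 (SE 0.36, edgeR adjusted p = 0.0236), from 1.18 and 1.6 CPM in IP against 2.66 and 3.12 CPM in input. That call was lost without IP 2, without input 2 and without input 4 (adjusted p = 0.0941, 0.0513 and 0.156). Inpp5d, a lipid phosphatase that restrains such signals, at 0.33, Itgam, the CD11b integrin, at 0.09 (its exons overlap a gene model on the same strand), and Cd14, a coreceptor for bacterial lipopolysaccharide, at -0.46, did not pass.

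Among genes of leukocytes in general, 2 of 5 fell and 0 were called higher (0 at an unadjusted p under 0.05, and 0 by DESeq2). The share of lower genes was 40%, against 22.4% of all genes tested and 25% of those at 1 to 5 CPM. Cd53, a tetraspanin of white blood cells, showed the lowest fold change of the 37. It had 43 and 26 counts in IP and 184 and 190 in input, or 1.13 and 0.602 CPM against 4.05 and 4.39 CPM. Cd53 was 4.89-fold lower (log2 fold change -2.29, SE 0.37, edgeR adjusted p = 5.68e-05), and was called in all 10 alternative settings. Ptprc had 8 and 16 counts in IP and 53 and 30 in input, and fell by 1.66 on the log2 scale (SE 0.66, edgeR adjusted p = 0.0454). The gene lay under the filter's count of 10 in IP 2, so it passed the filter through its input libraries. It was called in 4 of the 9 alternative settings that tested it, and not by DESeq2 (adjusted p = 0.105), with the replicate block (0.0618), or without IP 2 (0.180), input 2 (0.436) or input 4 (0.100). Laptm5, a lysosomal membrane protein of blood cells, had 7.37 and 7.33 CPM in IP and 7.50 and 10.5 CPM in input, at -0.29. Irf8, a transcription factor of the myeloid lineage, stood at 0.34 and Aif1, the gene of the microglial marker IBA1, at -0.49, and neither passed.

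The Cd53 promoter is shown as the upstream region of the gene with the lowest fold change. Genes of myeloid cells are known to be controlled by the factor PU.1, whose binding sites often hold the core GAGGAA. The sequence covers the 250 bases before the RefSeq start site at chr3:106790150-106790399 (GRCm38.p6, minus strand), written 5′ to 3′ with GAGGAA in capitals. The capitals begin 39 bases before the start.

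Cd53: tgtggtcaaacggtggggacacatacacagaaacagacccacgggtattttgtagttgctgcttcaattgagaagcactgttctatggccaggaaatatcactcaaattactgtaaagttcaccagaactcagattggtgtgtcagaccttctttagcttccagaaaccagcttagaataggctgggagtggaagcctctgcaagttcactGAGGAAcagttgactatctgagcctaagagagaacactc

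The core GAGGAA, searched on both strands, was present in 23.3% of all 32851 such windows of 250 bases. RefSeq windows matched 28 of the 37 members by symbol, and 17 of the 28 held it (18 of their 32 windows). They included genes that fell (Cd53, Ptprc, Cst3) and genes that did not pass, such as C1qb, Aif1 and Trem2. A match of 6 letters is a description of the window and not a binding site.

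The 3 border macrophage genes had few counts, 14 to 83 in a library. Mrc1, the mannose receptor, had 1.97 and 1.37 CPM in IP and 1.80 and 1.92 CPM in input (log2 fold change -0.16). Cd163, the receptor that clears haemoglobin, had 0.658 and 1.02 CPM in IP against 1.65 and 1.71 CPM in input (log2 fold change -1.0, SE 0.46, edgeR adjusted p = 0.0886). Pf4, the chemokine platelet factor 4, had 14 and 18 counts in IP and 49 and 32 in input (log2 fold change -1.20, SE 0.62, edgeR adjusted p = 0.120). In Cd163 and Pf4 both IP libraries lay below both input libraries, and in Mrc1 they did not. By edgeR 0 of the 3 were called, 1 was lower at an unadjusted p under 0.05, and DESeq2 called 0. Cd163 was called lower under a stricter filter on low counts (log2 fold change -1.05, adjusted p = 0.0487) and with library sizes alone.

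Of the 6 genes of the lysosome and its secreted inhibitor 3 rose and 1, Cst3, fell, with a median of 0.53. Among all genes at 20 to 100 CPM 37.9% rose and 21.2% fell, and from 100 CPM upward 48.3% rose and 19.9% fell. Lgmn, the asparaginyl endopeptidase legumain (chromosome 12, 102394084 to 102439813, minus strand), had 45.0 and 41.3 CPM in IP and 22.2 and 19.0 CPM in input. It was 2.09-fold higher (log2 fold change 1.07, SE 0.13, edgeR adjusted p = 1.95e-06). Ctsd, the aspartyl protease cathepsin D (chromosome 7, 142375911 to 142388038, minus strand), had 178 and 168 CPM in IP against 90.9 and 98.3 CPM in input. It was 1.83-fold higher (log2 fold change 0.87, SE 0.10, edgeR adjusted p = 7.34e-07). Ctsb, the cysteine protease cathepsin B (chromosome 14, 63122462 to 63145923, plus strand), had 665 and 645 CPM in IP against 356 and 339 CPM in input. It was 1.88-fold higher (log2 fold change 0.91, SE 0.09, edgeR adjusted p = 1.07e-07). In each of these genes the libraries of a group were close together and the groups far apart. All 3 were called higher in all 10 alternative settings.

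Overlapping annotation touches 2 of these 3. Exons of Ctsb overlap those of Fdft1 on the opposite strand, which was itself higher in IP and is named after its values were seen (log2 fold change 0.77, SE 0.10, edgeR adjusted p = 4.29e-06), and a second gene model on the same strand overlaps Ctsd. The files count ambiguous reads on a line of their own, 1.54% of records in each IP library and 5.07% and 5.09% in input.

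Cst3, an inhibitor of cysteine proteases that is secreted by astrocytes as well as microglia, fell. It had 192 and 184 CPM in IP and 321 and 286 CPM in input, with no overlap, and was 1.61-fold lower (log2 fold change -0.69, SE 0.09, edgeR adjusted p = 8.23e-06). Ctss, a cathepsin found largely in microglia within the brain, had 11.4 and 13.3 CPM in IP and 13.7 and 9.40 CPM in input. Its groups overlapped, and it stood at 0.09 on the log2 scale (SE 0.19, edgeR adjusted p = 0.710). Cd68, the macrophage marker macrosialin, had 4.55 and 7.43 CPM in IP and 5.17 and 5.41 CPM in input, at 0.18 (SE 0.25).

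The rise of Lgmn, Ctsd and Ctsb was set beside 44 other lysosomal hydrolases and membrane proteins. Of these, 24 rose and 3 fell (54.5% and 6.82%), with a median of 0.41, or 17 and 4 with a median of 0.16 with library sizes alone. Among the 23 that averaged 20 CPM or more, 20 rose, or 14 with library sizes alone. The largest increases were those of Grn, the gene of progranulin, at 1.83 (SE 0.11), Psap, the precursor of the saposins, at 1.49 (SE 0.09), Ctsf at 1.24 (SE 0.14) and Ctsl at 1.02 (SE 0.10). Pan-neuronal markers rose as well (11 of 12), and the part of neurons in the lysosomal values was not tested. Of 8 other protease inhibitors and cystatins tested, 4 rose and 1 fell (50% and 12.5%), with Timp2, a metalloprotease inhibitor, at 0.70 and Timp4 at -1.0. Over all genes tested 23.4% rose and 22.4% fell. Among all genes at 20 to 100 CPM these shares were 37.9% and 21.2%, and from 100 CPM upward 48.3% and 19.9%.

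Many lysosomal genes are known to carry the element TCACGTGA or part of it, to which the factor TFEB binds. Windows before a start site are shown for 2 genes that rose and for P2ry12, which fell, because all 3 windows hold TCACGTG. Siglech, which was not called, also has a window with TCACGTG, which is not shown. The letters TCACGTG on either strand are in capitals, and a palindrome TCACGTGA matches on both strands at once. Each sequence is the 250 bases before a RefSeq start site (GRCm38.p6), 5′ to 3′ along the gene, at chr7:142387828-142388077 for Ctsd, chr12:102439093-102439342 for Lgmn and chr3:59262986-59263235 for P2ry12, all on the minus strand. For Lgmn the window belongs to 1 of 2 RefSeq starts, and the window of the other start holds no match. By the gene coordinates used here, the Lgmn window shown lies wholly inside the gene, whose 5′ end is at 102439813. The Ctsd window lies partly inside its gene, whose 5′ end is at 142388038.

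Ctsd: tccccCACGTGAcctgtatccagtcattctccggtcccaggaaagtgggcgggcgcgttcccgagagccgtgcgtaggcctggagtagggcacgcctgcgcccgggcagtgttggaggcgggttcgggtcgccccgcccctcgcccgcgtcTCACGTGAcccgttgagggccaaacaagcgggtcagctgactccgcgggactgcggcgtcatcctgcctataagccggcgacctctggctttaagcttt

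Lgmn: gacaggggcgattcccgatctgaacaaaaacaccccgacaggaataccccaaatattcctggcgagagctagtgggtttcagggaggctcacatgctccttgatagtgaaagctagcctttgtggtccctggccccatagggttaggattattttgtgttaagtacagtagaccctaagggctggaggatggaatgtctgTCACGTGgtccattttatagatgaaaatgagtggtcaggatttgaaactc

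P2ry12: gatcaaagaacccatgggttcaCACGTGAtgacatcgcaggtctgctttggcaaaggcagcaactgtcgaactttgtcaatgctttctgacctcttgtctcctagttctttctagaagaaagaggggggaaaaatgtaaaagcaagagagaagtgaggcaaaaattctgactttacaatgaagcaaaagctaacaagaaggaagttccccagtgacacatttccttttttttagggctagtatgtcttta

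In Ctsd the run of 8 capitals is the palindrome TCACGTGA, which begins 99 bases before the start. That palindrome was present in 0.785% of the 32851 windows, and among the members in those of Ctsd and Siglech. TCACGTG was present, on either strand, in 3.13% of the 32851 windows, and in windows of 4 of the 28 members (Ctsd, Lgmn, P2ry12 and Siglech). Of the 34 lysosomal genes of the comparison list with a window, 9 held it. Of these members Ctsd and Lgmn rose, P2ry12 fell and Siglech did not pass. Csf1r and Ctsb, which rose, and Tyrobp and Tmem119, which fell, were among the members without a window and were not searched.

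Further genes of microglia outside the 37 gave values of the same kind. Of 35 such genes 32 were tested, 2 rose and 6 fell, with a median of -0.29, equal to that of the members. These shares of 6.25% and 18.8% compare with 23.4% and 22.4% of all genes tested. The decreases included Sall1, a transcription factor that maintains microglial identity, at -1.32 (SE 0.16), Rgs10, a regulator of G protein signalling, at -0.98 (SE 0.18), Cmtm6 at -0.70 (SE 0.17) and the transforming growth factor receptor gene Tgfbr1 at -0.69 (SE 0.15). Sparc, a matrix protein gene named after its values were seen, rose by 0.29 (SE 0.11), and with library sizes alone 0 genes of this list were higher and 11 lower. Of 7 further genes of border macrophages and monocytes that could be tested out of 15, 1 fell (Dab2, an endocytic adaptor, at -0.52), a call that DESeq2 did not make, and 0 were called higher (0 at an unadjusted p under 0.05, and 0 by DESeq2). Of 11 genes of reactive microglia tested out of 18, 3 fell, whereas DESeq2 called 1 lower. They were the growth factor gene Igf1 at -0.88 (SE 0.18), Cd63, a tetraspanin of lysosomes, at -0.62 (SE 0.23), and Ccl12. Ccl12, named after its values were seen, had 0 and 3 counts in IP and 12 and 13 in input. It passed the filter through input alone and could only be called lower. None of the 11 genes was called higher by edgeR or by DESeq2, and 2 had an unadjusted p under 0.05 in that direction.

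A further list held ligands and partners of the members and was not limited to genes of other cells. Of 15 tested, 6 rose and 1 fell (40% and 6.67%, against 23.4% and 22.4% of all genes tested), with a median of 0.11. With library sizes alone 2 rose and 4 fell. The 1 that fell, Tgfb1, named after its values were seen, had 9 and 10 counts in IP and 48 and 29 in input. It passed the filter through input alone, and DESeq2 called 0 genes of this list lower. Cx3cl1, the neuronal ligand of Cx3cr1, had 737 and 728 CPM in IP and 337 and 345 CPM in input, and rose by 1.10 (SE 0.09, edgeR adjusted p = 8.61e-09). The receptor itself was at 0.20 and did not pass. Cd47, which restrains engulfment, rose by 0.43 (SE 0.09), Clu, a lipid carrier that binds Trem2, by 0.80 (SE 0.09), and the adhesion gene Vcam1 by 0.55 (SE 0.15). Of 21 other complement genes tested, 3 rose and 2 fell (14.3% and 9.52%), with a median of 0.05, and 0 rose and 3 fell with library sizes alone. The 3 that rose were Cd59a, an inhibitor of the membrane attack complex, at 0.82, C1ql3, a synaptic relative of C1q, at 0.52, and Csmd1, a complement regulator of neurons, at 0.43. Of 15 other integrin genes tested, 4 rose and 2 fell (26.7% and 13.3%), or 1 and 5 with library sizes alone.

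**Figure D4:**
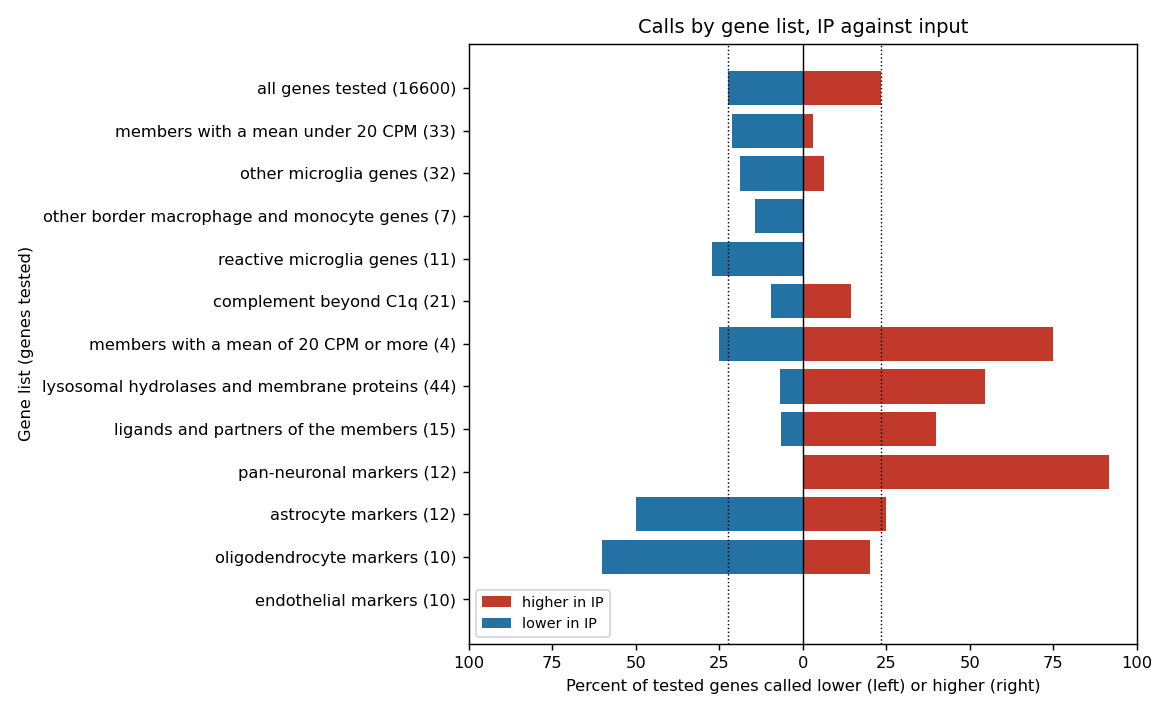
Share of tested genes called lower in IP (left, blue) and higher in IP (right, red) for each gene list, with the number tested in brackets. Dotted lines mark the shares over all genes, 22.4% lower and 23.4% higher. The members under 20 CPM and the other microglia genes show short red bars, and the lysosomal and pan-neuronal lists long ones.

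Markers of other brain cells moved in both directions as well. Over all genes tested 23.4% were called higher and 22.4% lower. Of 12 astrocyte markers 3 rose and 6 fell (25% and 50%, median -0.29). Of 10 oligodendrocyte markers 2 rose and 6 fell (20% and 60%, median -0.44). Of 6 oligodendrocyte precursor markers 1 rose and 2 fell (16.7% and 33.3%, median -0.14). Of 10 endothelial markers 0 were called (1 lower at an unadjusted p under 0.05, and 0 by DESeq2), with a median of -0.51. Of 8 pericyte and smooth muscle markers 1 rose and 1 fell, and of 7 fibroblast markers 1 rose and 3 fell. All 3 erythroid markers tested, of 5 listed, fell, with a median of -1.88. The summed level of the erythroid list was 1.68 and 3.59 CPM in IP and 9.81 and 10 CPM in input. Of 13 lymphocyte and granulocyte markers 2 passed the filter. Cd4 had 7.16 and 6.73 CPM in IP and 9.95 and 9.27 CPM in input (log2 fold change -0.47, edgeR adjusted p = 0.0492), and made up most of the summed level of the list, which was 7.5 and 6.78 CPM in IP and 10.9 and 9.64 CPM in input. The T cell gene Cd3e had 0 counts in both IP libraries and 11 and 10 in input, so it passed the filter through input alone and could only be called lower. The granulocyte genes S100a8 and S100a9 had at most 2 counts in any library, and Cd8a had 7 and 0 counts in IP and 1 and 0 in input, all chosen after their values were seen. The erythroid markers moved in the same direction as Cd53 and Ptprc, genes that white blood cells share with microglia, and the part of blood cells in those values was not tested.

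Exonic length was a feature the choice of members did not use, and its classes were set after the values were seen. The 10 shortest members, from Tyrobp with 564 exonic bases to C1qc with 1203, had a median log2 fold change of -0.59. Of these, Tyrobp, Fcer1g, Ly86 and Cst3 fell. The 8 longest, from Cx3cr1 with 4505 bases to Olfml3 with 5465, had a median of 0.15, with 2 called higher and 1 lower. The 13 and 6 members of the classes between them had medians of -0.29 and -0.32, so over all 37 the medians did not rise at every step. Over all genes the medians of the 4 classes, from short to long, were -0.09, 0.14, 0.09 and -0.07. Among genes under 20 CPM, the members had medians of -0.49, -0.46, -0.32 and 0.09 in these classes, against -0.21, -0.01, -0.11 and -0.26 for all genes. Here the member medians rose at every step. Spearman's rho of length and log2 fold change was 0.38 across the 37 members and -0.08 across 14590 genes tested with a known length. Under 20 CPM it was 0.35 across 33 members and -0.05 across 8047 genes. All these values are across genes that share the same 4 libraries and are not independent replicates.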

How the data were processed

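RNA of mouse cortex was sequenced in 2 IP and 2 input libraries. Per the submitters' processing notes, the authors used STAR 2.0.0e, HTSeq and the mm10 build, and the deposited values are raw read counts per gene symbol. Which annotation, strand setting and kit they used is not given in the sources used here. Lines that name no gene (reads outside features were 7.31% to 14.9% of records) were left out, and the line named unknown held at most 2 counts. Reads aligning to several places (30.7% to 38.0% of records) were not assigned, which lowers genes with close copies.

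Tests used edgeR 4.0.16 under R 4.3.3, with filterByExpr at a count of 10 and a total of 15, TMM factors (0.909 to 1.10) and the two-sided quasi-likelihood test without a block, adjusted by Benjamini-Hochberg over 16600 genes with a threshold of 0.05. Standard errors are those implied by that test. Replicates differed beyond sampling noise (chi-square per degree of freedom 22.6 in IP and 15.5 in input). On simulated data with the 16600 genes of this comparison, the test recovered 70% of 1.5-fold changes, 96% of 2-fold changes and 100% of 4-fold changes (50 genes each, all at 5 CPM or more). Of the members, 20 averaged 1 to 5 CPM and 3 under 1 CPM, and recovery at those levels was not simulated.

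The members were given by symbol, and members, lists and tests were chosen with earlier results of these data known. All members could be named. Other lists gave up to 4 names, those with the largest fold changes among called genes averaging 5 CPM or more. The counts of called genes and the medians, over all genes and over the members, and the values of single members were recomputed in alternative settings. These were DESeq2 1.42.0, its size factors given to edgeR, unadjusted library sizes (called library sizes alone) and no filter. They also included a stricter filter (50 counts in 2 libraries), the replicate number as a block, and leaving out each library in turn. The other gene lists, and the members split by role or at 20 CPM, were recomputed only with DESeq2, its size factors and library sizes alone. The classes of level and of exonic length, and Spearman's rho, come from the reported fit alone. Exonic lengths and coordinates came from GENCODE vM21 (GRCm38, also called mm10) and promoters from RefSeq (GRCm38.p6). Of 294 listed symbols 290 were in the files, and all 290 matched GENCODE by symbol. Figures were drawn with matplotlib 3.10.9.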

Additional observations from a re-analysis of the deposited data

How the results depend on the processing

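Csf1r, Lgmn, Ctsd, Ctsb, Tyrobp, Fcer1g, Cd53 and Cst3 were called in the same direction in all 10 alternatives. P2ry12, Tmem119, Ly86 and Ptprc lost their call in at least 1. Under library sizes alone 2151 of all genes were higher and 5910 lower, 15 members were lower, and the members' median was -0.55. In that setting the log2 fold change turned negative for Cx3cr1 (-0.06), Fcrls (-0.22), Olfml3 (-0.20), Itgam (-0.16), Ctss (-0.17) and Cd68 (-0.08), none of them called there or in the reported fit. With the stricter filter 34 members were tested, Ptprc not among them, and 9 were lower, since Selplg and Cd163 gained a call. Their median was then -0.20, Fcrls stood at -0.02 and Olfml3 at -0.00. With the replicate block the median was -0.22, 4 members were higher and 8 lower, C1qc gained a call and Ptprc lost one. Numbers 2 and 4 occur in both groups, but the deviations of same-numbered libraries correlated at only 0.0481 across genes, so the numbers were not treated as pairs.

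Leaving out 1 library at a time, members called lower numbered 5 to 9 and the members' median ran from -0.29 to -0.14. Uncalled members that changed sign ranged from -0.06 to 0.55 (Cx3cr1), -0.39 to 0.25 (P2ry6), -0.70 to 0.31 (Gpr34), -0.49 to 0.32 (Siglech), -0.28 to 0.32 (Fcrls), -0.37 to 0.40 (Olfml3), -0.18 to 0.00 (C1qa), -0.13 to 0.11 (C1qb), -0.61 to 1.19 (Trem2), -0.15 to 0.40 (Itgam), -0.43 to 0.09 (Mrc1), -0.14 to 0.39 (Ctss) and -0.21 to 0.51 (Cd68). The cause of these changes was not tested. Fits that left 1 library in a group assume that it varies like the other group. Depth limits the 33 members under 20 CPM, whose median standard error was 0.30.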
